A study of Mus musculus with 6 samples.

Results

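Interleukin receptor genes encode the cell surface chains through which leukocytes read interleukins. They were taken here as every row of the deposited fold-change table whose symbol starts with Il, a number and the letter r, apart from Il1rn, which encodes a secreted antagonist. The rule found 45 probe sets for 42 genes, among 25123 probe sets with a gene symbol and 28853 in all. Il20rb had 3 probe sets and Il17rd had 2. The rule also took Il8ra and Il8rb, array symbols whose current names are Cxcr1 and Cxcr2, chemokine receptors of the G protein-coupled class, and Il28ra, now Ifnlr1.

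The cells were c-kit+ mouse bone marrow progenitors transformed by MLL-AF9, a leukemia fusion protein that all samples carried. They had received the GFP-marked retroviral vector pMIG without insert (pMIG, 3 arrays) or carrying TGIF1 (pMIG-TGIF1, 3 arrays), a homeodomain repressor. They were sorted for GFP 3 days after the first transduction, cultured for 1 more day before lysis, and each labelling used 300 ng of RNA. The measurements come from 1 sort time after delivery by a retroviral vector, and the labels do not state whether the 3 replicates of a group were separate cultures, so p-values measure a spread between arrays that may be technical. RNA was read on Affymetrix Mouse Gene 1.0 ST arrays, on which a probe set is a group of short probes for 1 transcript cluster. Values are RMA intensities on a linear scale. Intensities of different probe sets cannot be compared with each other.

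Most interleukin receptors work as pairs or trios of chains, of which a private chain binds the cytokine and a chain shared between cytokines carries the signal. The gamma common chain, the beta common chain and gp130 are such shared chains, and they signal through JAK kinases and STAT factors. The IL-1 and IL-17 receptors instead use intracellular adaptors such as MYD88 and TRAF3IP2. On myeloid cells these receptors steer growth, maturation and inflammatory behaviour, and some, such as the IL-1 receptor type 2, bind cytokine without signalling.

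In the arrays labelled pMIG-TGIF1, 9 probe sets of the set rose and 3 fell. The largest rise was that of Il13ra1, a chain of the IL-4 and IL-13 receptor, at 5.70-fold (95% CI 4.35 to 7.47). Il18rap, Il1r2, Il8rb, Il7r and Il12rb1 rose between 2.08-fold and 2.69-fold, and Il10ra, Il1rl2 and Il28ra rose less. Il12rb2, the signalling chain of the IL-12 receptor, fell 2.64-fold (95% CI 2.17 to 3.21), Il11ra1 fell 2.12-fold and Il17ra fell 1.55-fold. A probe set was called, and is said to have risen or fallen, at a Benjamini-Hochberg adjusted p under 0.05 in limma, a linear model with moderated variances fitted over all named probe sets.

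The 12 calls are 26.7% of the 45 probe sets, and over all named probe sets 24.7% were called, a share close to that of the receptors. Calls of a rise made up 11.5% of all named probe sets and calls of a fall 13.2%, that is 2892 higher and 3308 lower, or 2179 and 4870 after median centring of the arrays. At a change of at least 1.5-fold, 8 of the 45 receptor probe sets were higher and 3 lower. Of all 25123 named probe sets 1511 (6.01%) were higher and 1581 (6.29%) lower. The share of rises at this threshold was thus larger among the receptors, a difference that was not tested. The median log2 fold change was 0.029 over the receptors and 0.010 over all named probe sets. In 18 of the 45 probe sets all arrays of one group lay above those of the other, as in 38.4% of all named probe sets. For each called receptor an exact permutation test, two-sided, gave p = 0.1, which is the lowest value possible with 20 assignments. In RNA from bulk cells, fewer cells of a type and less RNA per cell cannot be told apart.

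**Figure D1:**
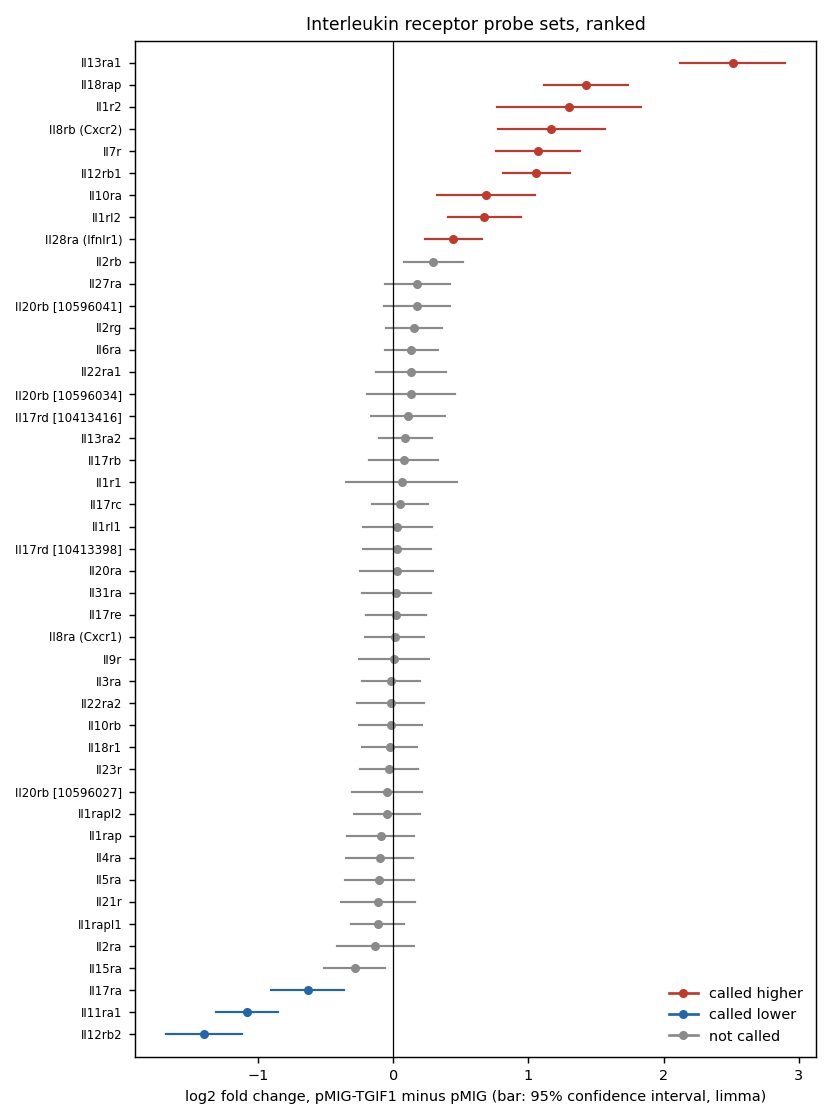
Log2 fold change (pMIG-TGIF1 minus pMIG) of all 45 interleukin receptor probe sets, each with its 95% confidence interval from limma; brackets give the probe set where a gene has several. The 9 called rises reach 2.51, the 3 called falls reach -1.40, and the other 33 lie between -0.28 and 0.30.

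Tgif1 itself ran against the label. Its probe set read 320, 376 and 408 in pMIG arrays, against 239, 239 and 258 in those labelled pMIG-TGIF1, 1.49-fold lower (adjusted p = 0.00286), and whether its probes lie in the sequence that the vector carries was not tested. Every direction therefore rests on the labels. Correlations across genes between arrays were 0.994 to 0.997 within groups and 0.975 to 0.984 between groups. Of 7 myeloid markers Ptprc was called higher (1.55-fold, adjusted p = 0.00136), Mpo and Kit were called lower, and Itgam, Elane (listed as Ela2), Csf1r and Cebpe were not called. Over the 6 arrays Itgam read 2766 to 3721, Elane 7738 to 9410, Csf1r 812 to 1065 and Mpo 60.2 to 197. The summed intensity of the 7 myeloid markers was 15162 to 16132 in pMIG and 15319 to 16947 in the arrays labelled pMIG-TGIF1. Such sums follow their brightest probe sets, here Elane, and do not measure cell numbers. Median centring would lower all log2 fold changes by about 0.11.

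The promoters of the extremes and of 2 genes of the IL-1 receptor cluster show what surrounds the start sites. TGTCA is the core motif of TGIF proteins, and capitals mark it on either strand (TGTCA or TGACA). The sequences are RefSeq windows on GRCm38.p6, from 250 bases before to 50 after the start of the gene, written 5′ to 3′ on the gene's strand. Il13ra1, which rose most (chrX:36111858-36112157, plus strand), and Il12rb2, which fell most (chr6:67376139-67376438, minus strand), each hold 2 copies. Il18rap (chr1:40515112-40515411, plus strand) and Il1rl2 (chr1:40324339-40324638, plus strand), which rose and lie in one gene cluster, hold none, whereas Il1r2, the other riser of that cluster, holds 1 copy and is not printed.
Il13ra1: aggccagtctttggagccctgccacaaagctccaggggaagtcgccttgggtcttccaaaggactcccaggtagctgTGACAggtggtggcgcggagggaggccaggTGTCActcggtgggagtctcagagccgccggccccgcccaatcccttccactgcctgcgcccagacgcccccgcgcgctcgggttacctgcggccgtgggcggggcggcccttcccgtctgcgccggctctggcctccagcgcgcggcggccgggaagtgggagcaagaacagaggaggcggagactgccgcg
Il12rb2: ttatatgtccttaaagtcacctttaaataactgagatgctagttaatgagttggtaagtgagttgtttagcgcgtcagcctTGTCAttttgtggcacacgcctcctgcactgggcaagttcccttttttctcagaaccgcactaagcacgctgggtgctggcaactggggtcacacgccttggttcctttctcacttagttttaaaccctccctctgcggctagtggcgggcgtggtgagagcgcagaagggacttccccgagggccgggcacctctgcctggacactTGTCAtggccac
Il18rap: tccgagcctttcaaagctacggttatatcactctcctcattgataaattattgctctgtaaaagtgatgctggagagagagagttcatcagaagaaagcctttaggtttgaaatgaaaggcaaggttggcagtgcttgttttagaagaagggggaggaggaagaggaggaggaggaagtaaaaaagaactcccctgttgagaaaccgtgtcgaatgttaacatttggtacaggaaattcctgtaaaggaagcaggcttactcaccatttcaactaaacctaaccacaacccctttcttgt
Il1rl2: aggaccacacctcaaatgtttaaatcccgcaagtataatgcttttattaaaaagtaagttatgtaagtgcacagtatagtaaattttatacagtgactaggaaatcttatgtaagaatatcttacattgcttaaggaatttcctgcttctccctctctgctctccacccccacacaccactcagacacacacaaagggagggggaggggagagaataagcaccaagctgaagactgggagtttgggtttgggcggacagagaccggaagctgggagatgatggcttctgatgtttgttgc

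Promoter windows were found for 9 of the 12 called genes, 10 windows in all, and Il10ra, Il12rb1 and Il17ra had no entry. TGTCA stood in 4 of these 10 windows, those of Il13ra1, Il1r2, Ifnlr1 and Il12rb2, in 20 of the 41 windows of all receptor genes and in 45.4% of all 32851 windows. TTCNNNGAA, the palindrome that STAT factors are known to bind, reads the same on both strands and does not overlap TGTCA by its letters. It stood in 3 of the 10 windows, those of Il1r2, Il7r and Il12rb2, in 5 of the 41 windows of all receptor genes and in 8.3% of all windows. A motif match is a description of the sequence and no measurement of binding.

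Among receptors that use or border on the gamma common chain, 2 of 10 rose and none fell. Over all named probe sets 11.5% rose and 13.2% fell, and no receptor group was tested against these shares. Il13ra1 pairs with Il4ra to form the receptor through which IL-13 signals in non-lymphoid cells. It read 355, 273 and 374 in pMIG arrays, against 1493, 1861 and 2425 in those labelled pMIG-TGIF1. The lowest of the latter was above the highest of the former by a wide margin (log2 fold change 2.51 ± 0.18 SE, adjusted p = 5.42e-06). Its partner Il4ra, one of the 3 brightest receptors that were not called, read 1031, 854 and 1013 against 874, 828 and 999, and the groups overlapped (log2 fold change -0.10 ± 0.11, adjusted p = 0.603). The change of Il13ra1 exceeded that of Il4ra by 2.61 on the log2 scale within arrays. The arrays did not overlap in this difference (exact two-sided p = 0.1), which reuses the Il13ra1 values and adds no independent result. Il13ra2, the decoy receptor for IL-13, lay among the dimmest 30% of probe sets and had a log2 fold change of 0.090 (adjusted p = 0.548).

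Il7r, the alpha chain for IL-7 and thymic stromal lymphopoietin known above all from lymphocytes, read 88.7, 71.1 and 81.3 in pMIG arrays, against 182, 191 and 137 in those labelled pMIG-TGIF1. The arrays separated, with replicate 3 the lowest of the latter, and the rise was 2.10-fold (95% CI 1.70 to 2.60, adjusted p = 0.00028). Both chains that it pairs with stayed uncalled. Il2rg, the gamma common chain, read 2026, 2010 and 2033 against 2091, 2238 and 2441, which is 1.11-fold higher without passing the test (adjusted p = 0.293), although the arrays did not overlap. Crlf2, its partner for thymic stromal lymphopoietin, read 341, 308 and 348 against 320, 293 and 334 (adjusted p = 0.67). T cell markers were dim in both groups. The 6 found summed to 225 to 235 in pMIG and 236 to 272 in the arrays labelled pMIG-TGIF1, with 2 of them, Cd3d and Cd3g, called higher, at intensities of 32.3 to 39.0 and 22.7 to 25.8 in the latter. Their part in the Il7r result was not tested.

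The trimeric receptors for IL-2 and IL-15 showed values near the threshold. Il2rb, the beta chain of both, read 24.3, 22.7 and 25.8 against 31.8, 27.6 and 30.1 in the arrays labelled pMIG-TGIF1. The arrays did not overlap, but the probe set lay among the dimmest 30% and missed the threshold (1.23-fold higher, adjusted p = 0.051). Leaving out pMIG-TGIF1 replicate 2 made it a call (adjusted p = 0.0428). Il15ra, the high-affinity chain that presents IL-15, read 150, 146 and 148 against 137, 115 and 114. All values of the latter were lower, and the probe set missed the threshold too (log2 fold change -0.28 ± 0.10, adjusted p = 0.067). It was called with quantile normalization (adjusted p = 0.0445), array median centring (0.0166), the dimmest 50% left out (0.0409) or without pMIG-TGIF1 replicate 1 (0.023). Il2ra, Il9r and Il21r had adjusted p-values of 0.535, 0.989 and 0.586. NK cell markers, which belong to a lineage that uses these receptors, summed to 48.4 to 56.1 in pMIG and 50.9 to 52.8 in the other group. None of 3 was called, and all 3 lay among the dimmest 30%.

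**Figure D2:**
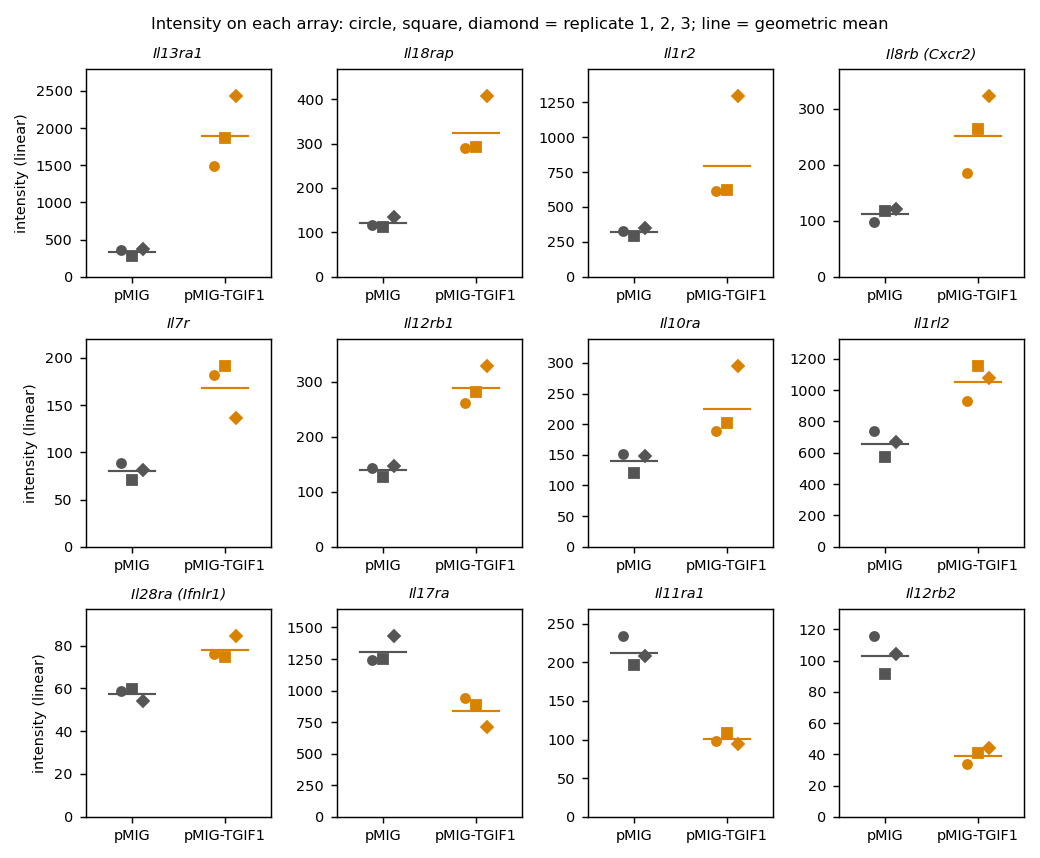
Linear RMA intensity of the 12 called interleukin receptor probe sets on each array, with 3 pMIG arrays (grey) and 3 arrays labelled pMIG-TGIF1 (orange) and a line at the geometric mean. In each panel all 3 arrays of one group lie above all 3 of the other. Of the 9 rising probe sets 7, among them Il1r2, Il10ra and Il13ra1, are highest on pMIG-TGIF1 replicate 3.

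The IL-1 receptor family had 3 rises and no fall among 9 probe sets. Of all named probe sets 11.5% rose and 13.2% fell. Il1r2, the decoy that binds IL-1 without signalling, read 331, 290 and 347 in pMIG arrays, against 616, 625 and 1292 in those labelled pMIG-TGIF1. Replicate 3 was far above the other arrays of its group, and the rise was 2.46-fold (95% CI 1.70 to 3.57, adjusted p = 0.00257). Without that array the log2 fold change went from 1.30 to 0.95 and was still called (adjusted p = 0.000144). Il1r1, the signalling receptor, read 61.6, 46.8 and 70.1 against 46.3, 69.9 and 71.0, and the groups overlapped (log2 fold change 0.062 ± 0.19, adjusted p = 0.87). The change of Il1r2 exceeded that of Il1r1 by 1.24 on the log2 scale, with arrays that did not overlap. This difference reuses the Il1r2 values and adds no independent result. The shared accessory chain Il1rap was not called (log2 fold change -0.094 ± 0.11, adjusted p = 0.629).

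Il18rap, the accessory chain that lets the IL-18 receptor signal, read 116, 113 and 134 against 289, 291 and 406 in the arrays labelled pMIG-TGIF1. The groups lay far apart, at 2.69-fold (95% CI 2.17 to 3.34, adjusted p = 5e-05). The ligand-binding chain Il18r1 read 17.9, 19.3 and 20.1 against 19.4, 18.2 and 18.7, among the dimmest 30% of probe sets, and did not pass (adjusted p = 0.886). Il1rl2, the IL-36 receptor, read 739, 574 and 670 against 930, 1151 and 1078. Its arrays separated at a smaller change of 1.60-fold (95% CI 1.32 to 1.92, adjusted p = 0.00219). Il1rl1, the IL-33 receptor known from mast cells and type 2 lymphoid cells, was dim and uncalled (log2 fold change 0.030 ± 0.11, adjusted p = 0.899). The neuronal members Il1rapl1 and Il1rapl2 were dim and uncalled as well.

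Of these 9 genes 6 lie next to each other on mouse chromosome 1, with no other protein-coding gene between them in the RefSeq annotation of GRCm38.p6. In the order Il1r2, Il1r1, Il1rl2, Il1rl1, Il18r1 and Il18rap, log2 fold changes were 1.30, 0.062, 0.67, 0.030, -0.027 and 1.43. The 3 rises thus lay among 3 genes that were not called, and the outermost genes of the cluster had the largest ones. Il8rb and Il8ra, also neighbours on chromosome 1, differed in the same way. Il8rb, the neutrophil receptor now named Cxcr2, read 97.6, 118 and 121 against 186, 264 and 322 (2.25-fold higher, 95% CI 1.71 to 2.96, adjusted p = 0.000775). Il8ra, now Cxcr1, read 29.8 to 34.4 over all 6 arrays and was not called (adjusted p = 0.959). Other neighbouring pairs with 1 called member were Il12rb2 with Il23r on chromosome 6 and Ifnlr1 with Il22ra1 on chromosome 4.

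**Figure D3:**
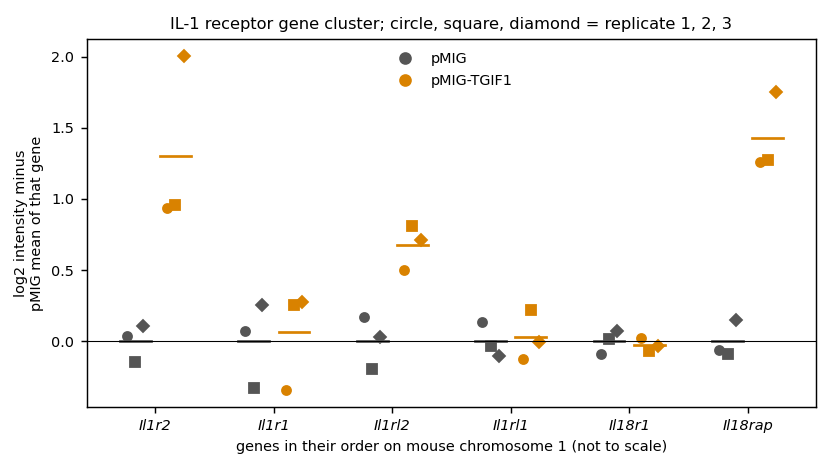
Log2 intensity of the 6 clustered IL-1 receptor family genes on each array, relative to the gene's pMIG mean, in chromosomal order (not to scale); lines are group means. Il1r2, Il1rl2 and Il18rap lie above their pMIG arrays (means 1.30, 0.67 and 1.43), and the groups overlap in Il1r1, Il1rl1 and Il18r1.

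Receptors of the gp130 and IL-12 group moved in both directions, with 1 of 7 higher and 2 lower. The shares over all named probe sets were 11.5% higher and 13.2% lower. Il12rb1, which serves the receptors of IL-12 and IL-23, read 143, 127 and 147 in pMIG arrays, against 262, 281 and 328 in those labelled pMIG-TGIF1. The values did not overlap, and the rise was 2.08-fold (95% CI 1.76 to 2.47, adjusted p = 7.71e-05). Il12rb2, which completes the IL-12 receptor and carries its STAT4 signal, read 116, 91.2 and 104 against 33.5, 40.8 and 43.7. All 3 latter values were below the former (log2 fold change -1.40 ± 0.13, adjusted p = 3.08e-05), and its promoter is the one printed above with a TGTCA copy on both sides of the start. The Il12rb2 probe set lay among the dimmest 50%. Its lower values may be near the array's background, so the size and rank of this fall are uncertain. The changes of the IL-12 receptor chains differed by 2.46 on the log2 scale within arrays. This difference reuses the values of both chains and adds no independent result. Il23r, the private chain for IL-23, was among the dimmest 30% of probe sets and not called (adjusted p = 0.867).

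Il11ra1, the alpha chain of the IL-11 receptor, read 234, 196 and 208 against 98.7, 108 and 94.5 in the arrays labelled pMIG-TGIF1. The lower group was tight and separate (log2 fold change -1.08 ± 0.10, adjusted p = 4.08e-05). The mouse genome holds a near-identical copy, Il11ra2, so which of both genes the probes read is uncertain. Il6ra, which binds IL-6, had a log2 fold change of 0.13 ± 0.089 and did not pass (adjusted p = 0.347). The shared chain Il6st, which encodes gp130, read 120, 101 and 124 against 209, 239 and 221 and rose 1.94-fold (95% CI 1.65 to 2.30, adjusted p = 0.000118). Il27ra read 37.7, 38.2 and 37.7 against 49.0, 38.0 and 42.1, with overlapping groups (adjusted p = 0.293). Il31ra, Lifr and Osmr, other receptors that work with gp130 or its relatives, were not called (adjusted p = 0.925, adjusted p = 0.081 and adjusted p = 0.921).

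In the IL-10 and lambda interferon group 2 of 9 probe sets rose, beside 11.5% of all named probe sets. Il10ra, the IL-10 binding chain, read 151, 121 and 148 in pMIG arrays, against 189, 202 and 294 in those labelled pMIG-TGIF1. Replicate 3 stood above the other arrays, and the rise was 1.61-fold (95% CI 1.25 to 2.07, adjusted p = 0.0106). Il10rb, the chain that IL-10, IL-22 and lambda interferon receptors share, read 1490, 1486 and 1630 against 1352, 1521 and 1682 and overlapped between groups (adjusted p = 0.927). Il28ra, the private chain for lambda interferons, read 58.6, 59.6 and 54.2 against 76.0, 74.5 and 84.3. It rose 1.36-fold with little spread (95% CI 1.18 to 1.57, adjusted p = 0.00584). The 3 probe sets of Il20rb had log2 fold changes of 0.18, 0.13 and -0.043, none of them called, and Il20ra, Il22ra1 and the soluble Il22ra2 were not called either.

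The IL-17 receptors held 1 fall and no rise among 6 probe sets, beside 13.2% lower and 11.5% higher of all named probe sets. Il17ra, the chain common to the receptors of this family, read 1245, 1247 and 1430 in pMIG arrays, against 943, 889 and 712 in those labelled pMIG-TGIF1. The groups did not overlap, with replicate 3 the lowest (log2 fold change -0.63 ± 0.12, adjusted p = 0.00323). Its partners Il17rb, Il17rc, Il17rd and Il17re had log2 fold changes between 0.017 and 0.11, all uncalled. The beta common chain receptors did not pass. Il3ra, the IL-3 binding chain, had a log2 fold change of -0.016 ± 0.10 (adjusted p = 0.939), and Il5ra, known from eosinophils, one of -0.10 ± 0.11 in a dim probe set (adjusted p = 0.606). Of their shared chains, Csf2rb was uncalled (adjusted p = 0.609), whereas Csf2rb2, the mouse-specific IL-3 form, rose 1.36-fold (adjusted p = 0.00625). Both genes are close copies, and their signals may not be separable by the probes.

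All 33 uncalled receptor probe sets, and none of the called, had a 95% confidence interval inside a 1.5-fold change either way, as had 18452 of all 25123 named probe sets. Of the 45 probe sets 14 lay among the dimmest 30%, where none was called, and 25 among the dimmest 50%, where 2 were called (Il12rb2 and Il28ra). Above that line 10 of 20 were called. Over all named probe sets the same counts were 240 of 7537, 1064 of 12562 and 5136 of 12561. For dim probe sets a value may be near the array's background, and the files give no detection call, so a receptor without RNA and one that did not change look alike there. Among the 9 rising receptors 7 were highest on pMIG-TGIF1 replicate 3, as were 1662 of all 2892 rising probe sets. This array had the lowest limma array weight (0.56).

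The ligands of these receptors were measured in the same RNA. Of 39 ligand genes 9 rose and 3 fell, or 30.8%, beside 24.7% of all named probe sets. These shares take no account of brightness. Among the dimmest 50% lay 28 of the ligands, with 4 called, against 1064 of 12562 named probe sets. Above that line 8 of 11 were called, against 5136 of 12561, a difference that was not tested. Il6 rose most, from 12.7, 13.3 and 13.9 in pMIG arrays to 92.0, 132 and 146 in the arrays labelled pMIG-TGIF1 (adjusted p = 5.41e-07). Its pMIG values may be near the array's background, so the size of this rise and its rank are uncertain. Il18 read 53.7, 50.9 and 52.5 against 220, 259 and 340, a 5.13-fold rise (adjusted p = 2.05e-06) beside that of Il18rap. Il1a and Il1b rose 5.10-fold and 4.43-fold, beside the decoy Il1r2. Il15 rose 3.52-fold (95% CI 2.79 to 4.44), while its receptor chain Il15ra was not called. Il12a, the p35 subunit of IL-12, read 334, 407 and 364 against 111, 151 and 131. Its 2.83-fold fall (adjusted p = 1.95e-05) stood beside that of Il12rb2, while Il12b was not called and Il23a, the IL-23 subunit, rose 1.56-fold.

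For the other called receptors the listed ligand genes mostly gave no call, and ligands of Il8rb were not listed. Il4 and Il13, the ligands of Il13ra1, had adjusted p-values of 0.964 and 0.346. Il7 (0.969), Il10 (0.16), Il11 (0.342), Tslp (0.556) and the genes of the IL-17 ligands (0.348 to 0.923) did not pass either. Of the IL-36 genes, Il1f6, among the dimmest 30% of probe sets, rose 1.39-fold and Il1f9 fell 1.46-fold, and Il1f8 was not called. The lambda interferon genes listed as Il28a and Il28b had adjusted p-values of 0.821 and 0.0556. The antagonist Il1rn read 283, 285 and 402 against 233, 250 and 248, lower without passing (adjusted p = 0.0644). Of the other inhibitors Sigirr, which dampens IL-1 family receptors, rose 1.37-fold (adjusted p = 0.00311), and Il18bp and Il1f5 were not called.

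**Figure D4:**
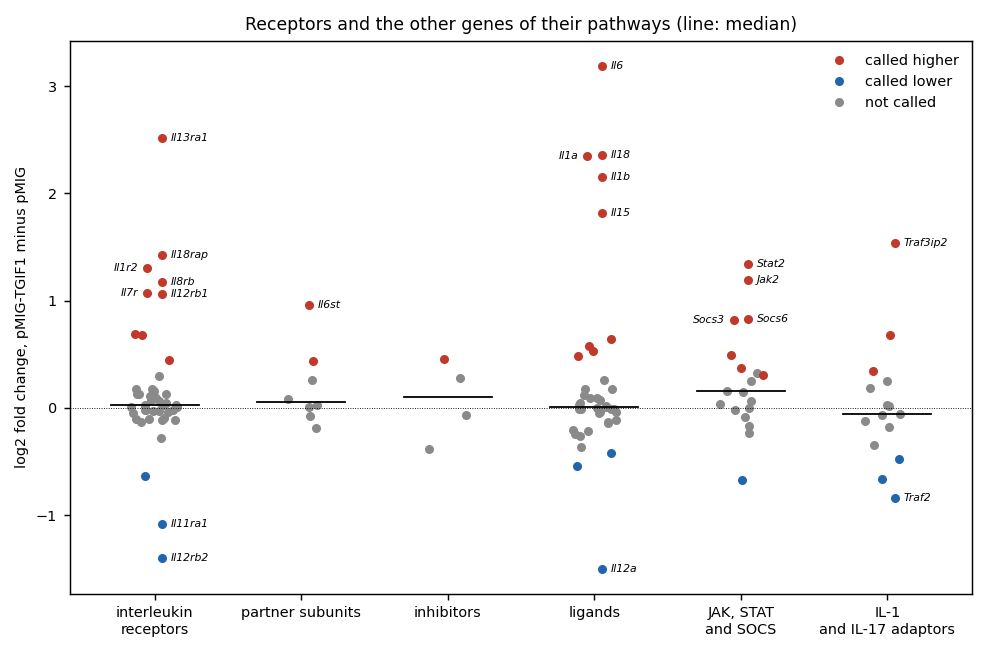
Log2 fold change (pMIG-TGIF1 minus pMIG) of the 45 receptor probe sets and of 85 other genes in their pathways, by role, with a line at each median; red is called higher, blue called lower and grey not called. The widest changes are those of the ligand genes Il6 (3.19) and Il12a (-1.50), and the receptor values run from -1.40 to 2.51.

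Downstream of the receptors, 7 of 19 JAK, STAT and SOCS genes rose and 1 fell, or 42.1%. None of the 19 lay among the dimmest 50%, and above that line 5136 of 12561 named probe sets were called, a similar share. Stat2, a transcription factor of interferon signalling, rose 2.53-fold (adjusted p = 2.31e-05), and the kinase Jak2 2.28-fold (adjusted p = 4.26e-05). The feedback inhibitors Socs3 and Socs6 rose 1.77-fold each. Stat5a, which many of these receptors activate, read 340, 415 and 276 against 217, 204 and 218 and fell 1.59-fold (adjusted p = 0.00456). Among 15 adaptors of the IL-1 and IL-17 receptors 3 rose and 3 fell, or 40%, and none of the 15 lay among the dimmest 50% either. Traf3ip2, the adaptor of IL-17 receptors, rose 2.90-fold (95% CI 2.40 to 3.52, adjusted p = 1.51e-05), in contrast to the fall of Il17ra. Irak2, a kinase of the IL-1 pathway, rose 1.60-fold, and Traf2 and Traf3 fell 1.79-fold and 1.59-fold.

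Over all 85 of these other genes 22 rose and 7 fell, or 34.1%, beside the 24.7% of all named probe sets. Above the dimmest 50%, 25 of 53 were called, against 5136 of 12561 named probe sets. Within it 4 of 32 were called, against 1064 of 12562. The 34.1% takes no account of this dependence on brightness. Array median centring gave 18 higher and 14 lower of the 85 genes. Their median log2 fold change was 0.024. Markers of further cell types that carry interleukin receptors were counted too. None of 5 B cell markers was called, and they summed to 210 to 212 in pMIG and 206 to 213 in the arrays labelled pMIG-TGIF1. Of 7 mast cell and basophil markers only Ms4a2 was called, 4.02-fold lower, and they summed to 328 to 341 against 208 to 237. The gap between these sums was mostly Ms4a2, which read 90.0 to 128 against 22.3 to 33.3. Mcpt8, which was not called, read 83.3 to 128 against 65.8 to 84.6. Of 3 eosinophil markers Siglecf (listed as Siglec5) rose 1.91-fold, while Epx and Prg2 read 28.1 to 35.5. Their sums of 281 to 294 against 472 to 510 were mostly Siglecf. Of 4 stroma and endothelium markers Pecam1, which leukocytes also carry, fell. Their sums of 1603 to 1834 against 1186 to 1335 were mostly Pecam1. Every intensity here is above 0, so a dim marker does not tell whether such cells were present. The part of such cells in the receptor results was not tested.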

How the data were processed

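RNA of 6 samples was hybridised to 1-colour Affymetrix Mouse Gene 1.0 ST arrays. The deposited intensities are on a linear scale and were made by the authors with Partek and RMA, per the submitters' processing notes, without versions or settings. RMA corrects background, normalizes between arrays and summarizes probes, so small differences on dim probe sets are compressed. The fold change and p-value columns of the deposited table are the authors' own and were not used for any result. Both deposited tables held the same intensities (largest difference 0). The genome build of the array annotation is not given in the sources used here.

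After log2 transformation of the deposited intensities, pMIG-TGIF1 minus pMIG was fitted by lmFit and eBayes of limma 3.58.1 under R 4.3.3 over 25123 probe sets with a symbol, without a filter, and tested on simulated data. Errors given as SE are from that fit. Probe sets that carry no symbol, 3730 in number, were not tested. Of the 45 receptor probe sets 44 were named through a RefSeq accession and 1 through its symbol, and 3 have another current symbol. Arrays give no count depth, and 3 per group limit the precision. The same replicate numbers did not pair arrays (correlations of deviations -0.19, -0.11 and -0.049).

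The receptors and lists were chosen with earlier results of these data known. Array values are given for each called receptor, the 3 uncalled with the smallest adjusted p and the 3 brightest uncalled. Up to 4 called genes per pathway list, the partner chains apart from Csf2ra and Cntfr, and the listed ligands of called receptors are named. The chemokine ligands of Il8rb were not on the lists. Further genes were picked as examples with their values known, as were the 13 chain pairs of which some are given. Arrays did not overlap in the difference for 12 of these pairs, the exception being Il2rb with Il2rg. Each pair held a chain whose own arrays already did not overlap, so this count adds no independent result. The share over other pairs of probe sets was not computed. Alternatives covered normalization, moderation, dim filters, probe set choice, array weights, a replicate block and leaving out each array.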

Additional observations from a re-analysis of the deposited data

How the results depend on the processing

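All 12 receptor calls kept their direction wherever the probe set was tested. With the replicate number as a block 9 receptor probe sets were higher and 3 lower, the same calls, and 2579 and 2957 of all named probe sets. Without moderation 5 and 2 receptors were called, since Il1r2, Il8rb, Il10ra, Il1rl2 and Il17ra lost the call (adjusted p = 0.0567 to 0.137), and 1754 and 1647 of all named probe sets and 3 falling pathway genes passed. Array median centring gave 14 falling pathway genes in place of 7 and turned the split of all calls to 2179 higher and 4870 lower. With the dimmest 50% left out Il12rb2 and Il28ra were not tested. Leaving out single arrays gave 9 to 10 rising and 3 to 4 falling receptors. Of the 29 called pathway genes 12 lost the call under at least 1 alternative, among them Il1f9 (adjusted p up to 0.15), Il1f6, Il23a, Stat5a and Irak3, and none changed sign. No other pathway count moved by over 1.5 times, and leaving out single arrays gave 18 to 22 rising and 5 to 8 falling pathway genes, and 2323 to 2724 rising and 2537 to 3187 falling probe sets over all. The replicate numbers share no stated pairing. The files give no signal over background, which limits the dim receptors.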
